A study of Mus musculus with 18 samples.

Results

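The cohesin landscape of resting B cells comprised 1762 RAD21 binding sites. A site was counted when a peak was called in at least 2 of the 3 replicates at time 0 h, with peaks of different replicates joined when they shared at least 1 bp. These were 1762 of 4195 sites with a peak in any resting replicate, and of 15225 sites with a peak in any of the 9 replicate lists of the whole series. The other 2433 resting sites had a peak in 1 replicate and were not counted. Purified B cells came from the spleens of young adult wild-type C57BL/6 mice (C57BL/6J in the study's methods), each replicate being a pool of several animals, and the resting cells had received no stimulus. The sex of the mice is not given in the sources used here. Chromatin was precipitated with an antibody to RAD21 and sequenced beside input DNA from the same cells. The series also holds activated cells, which are not described here, and the study asked where cohesin binds as B cells move from rest to activation. RNA was not measured in this series, so the cell type could not be checked by the expression of marker genes.

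Cohesin is a ring-shaped protein complex that holds sister chromatids together and also shapes interphase chromosomes. RAD21 is the kleisin subunit that closes the ring between the SMC1 and SMC3 arms. The ring is known to extrude loops of chromatin until it meets CTCF, a zinc finger protein that binds a long, non-palindromic motif, and many cohesin sites in mammalian cells coincide with CTCF sites. A pair of convergent CTCF motifs, pointing at each other across the intervening DNA, is the known arrangement at the feet of such loops. In B cells cohesin and CTCF are known at the immunoglobulin loci, where distant gene segments are brought together.

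The sites carried one dominant sequence. A 20-base motif was learned on the 768 sites of the even-numbered chromosomes, and its core, written as the most frequent letters, was CCACNAGGGGGCAC, where N marks a position without a dominant base. This is the core of the known CTCF motif. On the chromosomes not used for learning, 899 of 994 sites held the motif within 100 bp of the site centre, which was 90.4% (exact 95% interval 88.4 to 92.2). The same search found it in 4.73% of 1988 windows lying 1 kb to either side. The cutoff had been set to pass 5% of such windows beside the learning sites, so this share follows from it. The motif lay a median of 22 bp from the site centre, and 68.0% of the motifs were within 30 bp of it. At a stricter cutoff, set to pass 1% of flanking windows, the motif was in 66.6% of the sites and in 0.805% of the windows beside them. CTCF itself was not measured in these libraries, so a match describes letters and not an occupied CTCF site.

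The sequences below are the motif matches of the highest-ranked sites that held the motif, shown because they let the same core be read in sites from 6 chromosomes. The site at rank 5, nearest Mgat4c, lacked the motif and is left out. The matches at 2610002J02Rik, Fgl2 and Zcchc2 scored 12.5, 13.3 and 14.8, below the stricter cutoff of 15.6. Matches on even-numbered chromosomes come from sites on which the motif was learned. Each line gives the nearest protein-coding gene, the mm9 position, the strand on which the motif reads and 30 bases 5′ to 3′ on that strand, with the 14-base core in capitals.
2610002J02Rik, chr4:154623528-154623557, minus strand: gcagcccaTCACTTGGTGGCAGcaaaagtc
Klf3, chr5:65204897-65204926, minus strand: aaagagaaCCAGTAGGTGGCGCacgaaaac
Alg14, chr3:121010677-121010706, plus strand: ccatcctgCCACCAGGTGGCAGcatactac
Fgl2, chr5:20832491-20832520, plus strand: gcatgctgCCACCAGGGGGTGTttgagtgc
Rassf8, chr6:145778792-145778821, plus strand: ataactatACACTAGGGGGCAGcagccacc
Sdhb, chr4:140513945-140513974, minus strand: cgagtctaCCTCCAGGGGGCACtcccggct
Zcchc2, chr1:107968005-107968034, plus strand: caccgtgaACTGAAGGGGGCGCaattgttt
Mmp20, chr9:7603490-7603519, plus strand: tcacctcgCCACTAGATGACACtcactccc

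At B cell loci matches to the motif ranged from weak to strong. The lines below give the matches at the highest-ranked site near each of 3 B cell genes, at the single Pax5 site, and at sites of the immunoglobulin heavy chain (Igh), kappa (Igk) and lambda (Igl) loci. The first 2 Igh matches had motif scores of 9.67 and 12.6, over the cutoff of 9.06 but below the stricter one of 15.6, and the third scored 21.8. All lines but those of Cd79a and Pou2f2 lie on even-numbered chromosomes, so they come from sites on which the motif was learned.
Cd79a, chr7:25675639-25675668, plus strand: ctcttcggCCACTAGGTGGCAGctgctagc
Pou2f2, chr7:25891014-25891043, plus strand: ctctttagCCACTTGGGGGCGCgctactca
Fcer2a, chr8:3672049-3672078, minus strand: gaaaactgCCACAAGGGGGAGCgcgtgtct
Pax5, chr4:44685544-44685573, plus strand: tgcaaccaACACCTGGGGGCACtgttgttc
Igh, chr12:114458889-114458918, plus strand: accagaggCCACATGAGGCCAGtagagtct
Igh, chr12:114461156-114461185, plus strand: ggctatgcTCACACGGGGGCAGcagagttt
Igh, chr12:114495665-114495694, minus strand: ccaggtgtCCACAAGAGGGCAGtgggggcc
Igk, chr6:67983794-67983823, plus strand: aaattcctCCAGTAGAGGGAGAtagaggac
Igk, chr6:68618582-68618611, plus strand: atttgccgTCACAAGATGGCGCcagattcc
Igk, chr6:69683050-69683079, minus strand: tcaaatggCCAGGAGAGGGAGCcagaatat
Igk, chr6:70702645-70702674, minus strand: ggcagtggCCAGAAGGGAGCGCtccagccc
Igk, chr6:70718937-70718966, minus strand: tgctgtgcCCACTAGGGGGCTCtcctgctc
Igk, chr6:70762029-70762058, plus strand: taccacagCCACCAGGTGGCAGaccaaccc
Igl, chr16:19088269-19088298, minus strand: taataaagCCACTAGAGGGTGGtgtgaccc
Igl, chr16:19263624-19263653, minus strand: taataaagCCACTAGAGGGTGGtgtgaccc

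The Igl matches shown had the same 30 bases. Reads from such copies may not be told apart, so these 2 sites are given as uncertain.

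The whole site near Cd79a, which encodes a signalling chain of the B cell receptor, is shown because it is the highest-ranked site within 10 kb of a gene of that receptor. It spans 289 bases between the end of Rps19 and the start of Cd79a, and it is written on the plus strand of mm9 with the motif core in capitals.
Cd79a, chr7:25675526-25675814, plus strand: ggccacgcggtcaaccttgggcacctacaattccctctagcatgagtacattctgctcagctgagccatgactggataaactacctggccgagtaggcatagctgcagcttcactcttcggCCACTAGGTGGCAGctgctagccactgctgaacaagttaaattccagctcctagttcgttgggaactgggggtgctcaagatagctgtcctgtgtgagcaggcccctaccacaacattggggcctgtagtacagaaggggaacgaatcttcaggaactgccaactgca

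The 3 replicates differed in how many peaks they gave. Replicate 1 had 2097 peaks, replicate 2 had 821 and replicate 3 had 3578, although an equal number of unique read positions had been drawn from each set of aligned reads before peak calling. Of the 1762 sites, 1599 had a peak in replicate 1, 748 in replicate 2 and 1715 in replicate 3. The pair of replicates 1 and 3 alone supplied 1014 sites, all 3 replicates shared 538, replicates 2 and 3 shared 163 and replicates 1 and 2 shared 47. Replicate 2, the shortest list, had 91.1% of its sites among the 1762, and replicate 3, the longest, had 47.9%. With replicate 1 left out 700 sites remained, with replicate 2 left out 1552, and with replicate 3 left out 585. The number of sites therefore depended on the longer lists, and a site that is missing here may have lain below the calling threshold of replicate 2. The peak list that the authors called on the merged replicates held 5690 peaks and overlapped 1761 of the 1762 sites.

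The sites were short and covered little of the genome. Their median width was 239 bp (interquartile range 212 to 266, full range 145 to 530), and together they covered 427 kb. Each peak carries a score whose statistic is not named, so only its order among the peaks of one replicate was read. A score percentile is the rank of a peak among the peaks of its own replicate, with 100 as the highest. Between replicates the ranks of shared sites were weakly related, with Spearman coefficients of 0.290 for replicates 1 and 2 (585 sites), 0.362 for replicates 1 and 3 (1552 sites) and 0.276 for replicates 2 and 3 (701 sites). Sites in all 3 replicates had a median mean percentile of 67.0, sites in 2 replicates 51.2 and the sites in 1 replicate that were not counted 38.0. The motif was in 91.1%, 90.0% and 84.8% of these 3 sets.

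The 20 sites with the highest mean percentile among those found in all 3 replicates lay on 14 chromosomes, with mean percentiles from 96.8 to 99.9. Of these, 18 held the motif, 1 lay within 1 kb of a protein-coding transcription start, 5 lay within 10 kb of one and 4 lay more than 50 kb from the nearest start. By annotation 13 were intergenic, 6 intronic and 1 in a promoter. Over all 1762 sites 90.3% held the motif, 7.78% lay within 1 kb of a start and a further 28.7% at 1 to 10 kb. At 50 to 100 kb, 100 to 500 kb and beyond lay 10.6%, 7.78% and 0.511% of all sites. By annotation 49.6% of all sites were intergenic, 34.3% intronic and 5.90% in promoters. With 20 sites, the counts do not set the highest ranks apart from these shares.

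The first of the 20 lay at chr4:154623376-154623673, 573 bp before the nearest start of 2610002J02Rik. Its scores were 48.86, 37.0 and 45.14 in replicates 1, 2 and 3, and it was the top peak of replicate 2. The second lay in intron 1 of Klf3, which encodes a Krüppel-like transcriptional repressor known in B cell development, and scored 41.83, 29.9 and 49.47. The third, in intron 2 of Alg14, which encodes a subunit of an enzyme of N-glycan assembly, scored 34.13, 33.15 and 53.21 and was the top peak of replicate 3. All 3 of these sites were in the top 2% of every list. Each of the 20 scored at least 24.21 in replicate 1, 16.22 in replicate 2 and 29.08 in replicate 3.

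The nearest genes of the other 17, in rank order, were Fgl2, Mgat4c, Rassf8, Sdhb, Zcchc2, Mmp20, Commd7, Gmpr, Cenpm, Tuba3a, C330006K01Rik, Larp1, Gm1818, Cd79b, Tnfaip8, Gm20508 and E330021D16Rik. The Fgl2 site lay in intron 4 of the neighbouring Ccdc146, and the site at rank 12 in intron 4 of Cenpm. The Cd79b site lay 11.2 kb before the start of Cd79b, the second signalling chain of the B cell receptor, within intron 18 of Scn4a, a sodium channel gene of muscle. It scored 28.46, 17.5 and 30.79 in replicates 1, 2 and 3. The 2 sites without the motif were those nearest Mgat4c and Gm1818, which lay 291 kb and 271 kb from these genes. A high rank thus went with no single type of genomic position.

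Across all sites the score showed little relation to the motif. Within replicates 1, 2 and 3 the Spearman coefficients between score percentile and motif score were -0.0065, -0.015 and 0.025 over 1599, 748 and 1715 sites. In the lowest and the highest quartile of sites by mean percentile the motif was in 89.8% and 91.8%, and 6.59% and 5.44% lay within 1 kb before a start. The score rose with width, with coefficients of 0.404, 0.265 and 0.476 in replicates 1, 2 and 3. The sites with higher scores were thus mainly wider. Sites in all 3 replicates had a median width of 261 bp and a median mean percentile of 67.0. Sites in 2 replicates had 230 bp and 51.2. The part that joining peaks of several replicates has in the relation with width was not tested.

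Relative to gene models the sites were over-represented at promoters. Of the 1762 sites, 104 were centred within 1 kb before a protein-coding transcription start, which was 5.90% of sites (exact 95% interval 4.85 to 7.11) against 1.23% of base pairs. In the 3 separate replicate lists this share was 6.39% ± 0.189 (SD, n = 3). Within 3 kb before a start lay 218 sites, or 12.4% (10.9 to 14.0) against 3.43% of base pairs. The 3 kb beyond the gene end held 170 sites, or 9.65% (8.31 to 11.1) against 3.58% of base pairs. Introns held 624 sites, or 35.4% (33.2 to 37.7) against 35.6% of base pairs, and whole gene bodies 40.2% (37.9 to 42.5) against 38.2%. The 5′ untranslated regions held 23 sites (1.31% against 0.264% of base pairs), the 3′ untranslated regions 35 (1.99% against 1.05%) and coding exons 27 (1.53% against 1.39%). For introns, coding exons and gene bodies the interval included the share of base pairs, whereas for both flanks of genes and both untranslated regions it lay above.

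**Figure D1:**
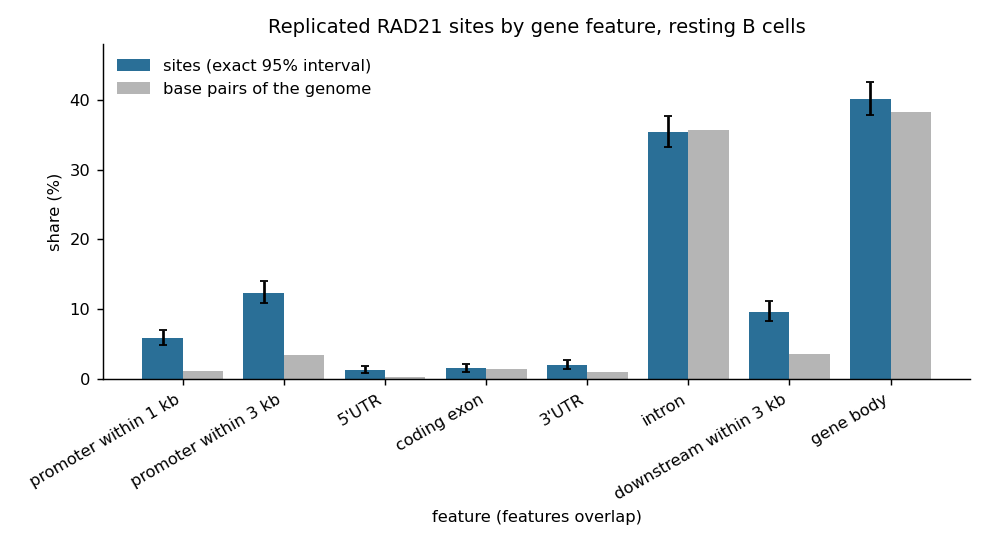
Share of the 1762 replicated RAD21 sites of resting B cells centred in each gene feature (dark bars, percent, exact 95% binomial intervals) beside the share of genomic base pairs in that feature (grey bars); features can overlap. Promoters within 1 kb held 5.90% of sites and 1.23% of base pairs, while introns held 35.4% and 35.6%.

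The nearest transcription start was a median of 16.3 kb from a site, compared with 55.5 kb for positions taken every 10 kb along the genome. Within 1 kb of a start, on either side, lay 137 sites (7.78% against 2.31% of positions). Of these, 101 lay before the start and 36 after it, and the 250 bp just before the start held 48. A further 506 sites lay at 1 to 10 kb (28.7% against 15.4%) and 787 at 10 to 50 kb (44.7% against 30.0%), the most populated range. Only 9 sites lay beyond 500 kb, or 0.511% against 9.35% of positions. Most sites were thus near genes without being at promoters.

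Sites without the motif were compared with sites that held it. Among the 171 sites without it, 18 lay within 1 kb before a start, or 10.5% (exact 95% interval 6.36 to 16.1), compared with 86 of the 1591 sites with it, or 5.41% (4.35 to 6.63), and these intervals overlap. Seen from the features, the motif was in 86 of 104 promoter sites (82.7%, 74.0 to 89.4) and in 557 of 604 sites assigned to introns (92.2%, 89.8 to 94.2). A tandem repeat of at least 20 bases was present in 38 of the 171 sites without the motif (22.2%, 16.2 to 29.2) and in 33 of the 1591 sites with it (2.07%, 1.43 to 2.90). Repeats of this kind can gather misplaced reads, and their part in these peaks was not tested. Of the sites without the motif, 28.1% were in all 3 replicates, compared with 30.8% of those with it.

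Along the chromosomes the sites followed the genes. The mean density was 0.689 sites per sequenced Mb. Chromosome 11 was the densest with 148 sites, or 1.25 per Mb, followed by chromosome 19 with 69 sites, or 1.19 per Mb. These 2 chromosomes carry 13.9 and 12.5 protein-coding genes per Mb. Chromosome 7, the most gene-dense with 14.6 genes per Mb, held 0.881 sites per Mb. Over the 19 autosomes the densities of sites and genes had a Pearson coefficient of 0.83 and a Spearman coefficient of 0.85. This describes 19 points from the same libraries. The autosomes with the fewest sites per Mb were chromosomes 18 (0.537), 3 (0.537) and 14 (0.543).

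**Figure D2:**
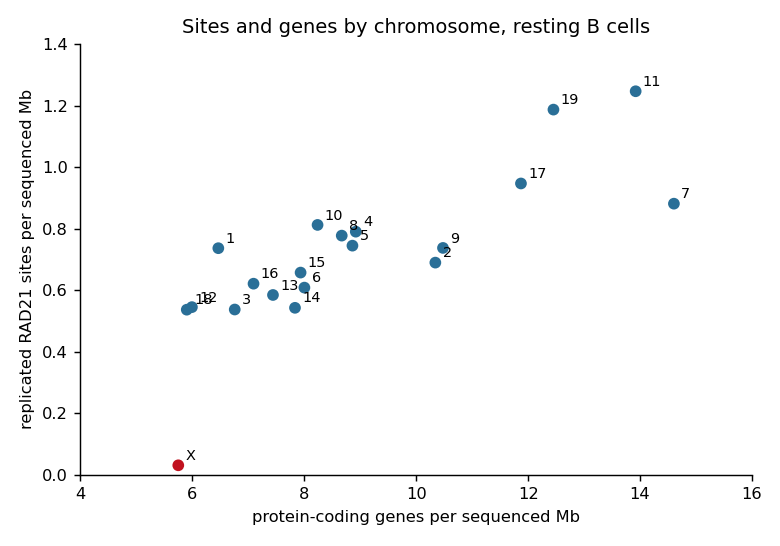
Replicated RAD21 sites per sequenced Mb against protein-coding genes per sequenced Mb for the 19 autosomes (blue) and chromosome X (red) in resting B cells, each point labelled with its chromosome. Chromosome 11 reached 1.25 sites per Mb, and X lay at 0.0308 with a gene density near that of chromosome 18.

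Chromosome X stood apart from all autosomes. It held 5 of the 1762 sites, or 0.284% (exact 95% interval 0.0922 to 0.661), while it makes up 6.33% of the sequenced base pairs. None of these 5 sites was found in all 3 replicates. The single replicates gave 14, 5 and 45 peaks on X, which were 0.668%, 0.609% and 1.26% of their lists, so the low number was seen in each of them. Its gene density of 5.75 per Mb was close to the 5.90 of chromosome 18, which held 47 sites. Chromosome Y, of which 2.70 Mb is sequenced in this build, held 2 sites, neither found in all 3 replicates.

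In bins of 1 Mb the same relation held at a finer scale. Of 2565 bins, 949 (37.0%) held a site, and the Spearman coefficient between sites and genes per bin was 0.47. When the bins were divided into quartiles by their number of genes, 8.89% of the bins in the poorest quartile held a site, then 28.4%, 46.8% and 63.9% in the richest. The last share was 34.6% with replicate 3 left out and 38.5% with replicate 1 left out. The richest quartile held 934 sites, or 53.1% of all. The densest bins, 2 in all, held 8 sites each. In the bin at 29 to 30 Mb of chromosome 17 the sites were nearest Cdkn1a, Rab44, Cpne5, Fgd2, Pim1 and Gm17657. Cdkn1a encodes the cell cycle inhibitor p21, and Pim1 a kinase known as an oncogene of lymphomas. The bin at 59 to 60 Mb of chromosome 10 had sites nearest Dnajb12, Chst3, Psap and Gm17455, where Psap encodes the precursor of lysosomal saposins. Bins with 7 sites lay on chromosome 7 (31 to 32 Mb, a stretch of 59 genes that includes Cd22), chromosome 10 (80 to 81 Mb, 59 genes), chromosome 19 (4 to 5 Mb, 45 genes) and chromosome 9 (57 to 58 Mb, 26 genes). The longest stretch between neighbouring autosomal sites was 17.7 Mb on chromosome 14 and held 21 genes.

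The density of the motif in the genome rose with gene density as well. At the stricter cutoff the genome held 70708 motif matches, of which 1219 (1.72%) lay in one of the 1762 sites. Bins of the poorest gene quartile held 9.12 matches each, and 0.598% of these lay in a site. The other quartiles held 18.4, 32.1 and 50.2 matches per bin, of which 1.46%, 1.59% and 2.11% lay in a site. Gene-rich bins thus had both more matches and a larger share of them in sites. On chromosome X there were 16.6 matches per Mb, and 4 of its 2694 matches lay in a site (0.148%, exact 95% interval 0.0405 to 0.380). The autosomes had 20.5 to 42.8 matches per Mb, and 1.33% to 2.48% of these lay in a site. The lower number of matches on X was therefore smaller in extent than its lower share of matches in sites.

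The share of matches in a site rose with the motif score. This score is the log2 odds of the 20 bases under the motif against the mean base composition of the learning sites. It was 0.854% (exact 95% interval 0.772 to 0.941) for scores from 15.6 to 18, then 2.43% (2.18 to 2.69), 4.55% (4.05 to 5.10) and 5.60% (4.79 to 6.51) in the next bands up to 24, and 7.21% (4.63 to 10.6) for the 319 matches above. The motif was learned on part of these sites, so this describes them and is no independent check. Even in this highest band 92.8% of the matches lay outside the sites counted here.

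**Figure D3:**
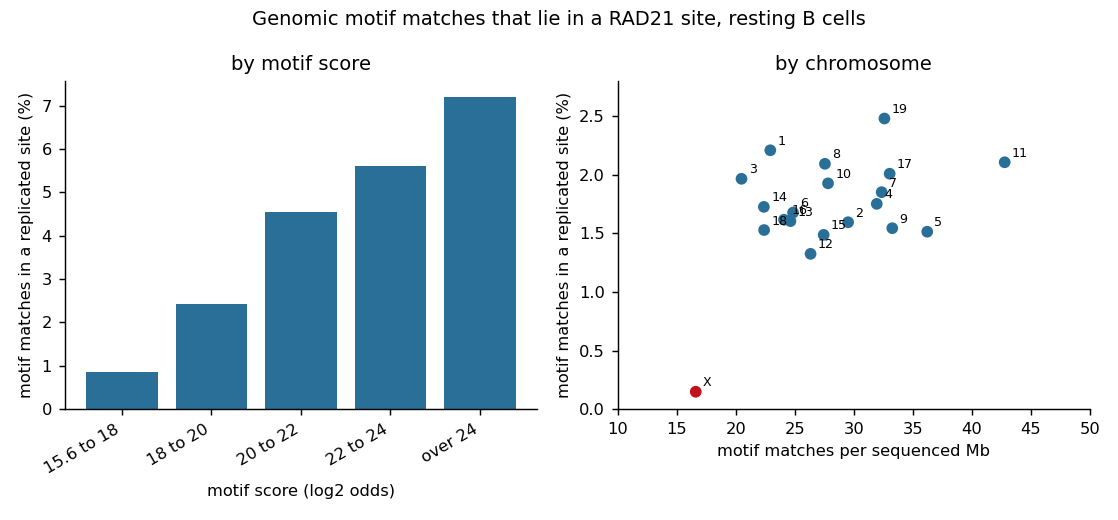
Share of genomic motif matches that lie in a replicated RAD21 site of resting B cells, in percent, by motif score band (left, bars) and by chromosome against the number of matches per sequenced Mb (right, points labelled by chromosome, X in red). The share rose from 0.854% to 7.21% with the score, and X lay at 0.148% while the autosomes lay between 1.33% and 2.48%.

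Most sites stood alone. The median distance between neighbouring sites on a chromosome was 459 kb (interquartile range 132 to 1573) over 1741 pairs, and the smallest was 310 bp. A neighbour within 20 kb was present for 155 sites (8.80%), within 100 kb for 592 (33.6%) and within 1000 kb for 1522. The share with a neighbour within 20 kb was 1.71% with replicate 3 left out and 3.57% with replicate 1 left out. The median distance was 2035 kb with replicate 3 left out and 1553 kb with replicate 1 left out, since fewer sites then remained.

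Runs of at least 3 sites, each within 20 kb of the next, occurred 5 times, and every run had 3 sites. The tightest spanned 2.51 kb at chr12:114458787-114461294, 3′ of the annotated constant genes of Igh. The second lay at chr11:48670139-48688293 near Irgm1, an interferon-inducible GTPase gene of resistance to intracellular microbes, and Trim7. The third, at chr8:87498219-87514477, had its sites in the 3′ untranslated region of Prdx2, downstream of Junb and 145 bp before the start of Hook2. Prdx2 encodes a peroxiredoxin and Junb a subunit of the AP-1 transcription factor. The Hook2 promoter site had the highest mean percentile of these 3 sites, at 90.9. The fourth, at chr11:109286799-109307355, covered the promoter and introns of Amz2, and the fifth, at chr17:29518506-29551455, lay beyond Fgd2 in one of the 2 densest bins. With a limit of 50 kb there were 24 such runs with 76 sites.

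The relative direction of the motifs in neighbouring sites varied with distance. Both sites carried the motif in 1422 neighbouring pairs. Over all distances 405 pairs were convergent, 405 divergent and 612 pointed in the same direction. Independent strands would give 24.98% for either of the first 2 kinds, and 28.5% (exact 95% interval 26.1 to 30.9) were observed for each. Along a run of neighbouring motif-bearing sites, convergent and divergent pairs must alternate, so their equal totals largely follow from the counting. A larger convergent share at some distances therefore goes with a larger divergent share at others, and these are not separate observations. The convergent share over all distances was 25.9% with replicate 1 left out and 24.9% with replicate 3 left out, so the overall difference from independent strands was lost there. At 100 to 500 kb, 188 of 479 pairs were convergent (39.2%, 34.8 to 43.8) and 115 divergent (24.01%, 20.2 to 28.1). At 20 to 100 kb, 81 of 226 were convergent (35.8%, 29.6 to 42.5) and 61 divergent (27.0%, 21.3 to 33.3). Below 20 kb only 2 of 68 pairs were convergent (2.94%, 0.358 to 10.2), while 43 pointed the same way and 23 were divergent. Beyond 500 kb, 134 of 649 were convergent (20.6%, 17.6 to 23.97). The median distance was 248 kb for convergent, 506 kb for same-direction and 525 kb for divergent pairs. Neighbouring pairs share sites, so the intervals cover counting error only. With replicate 1, 2 or 3 left out, the convergent share at 100 to 500 kb was 38.5% of 122 pairs, 39.2% of 408 and 33.3% of 84. Below 20 kb it was 0 of 10 pairs, 2 of 56 and 0 of 5, too few in the first and last case to show whether the share is stable.

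**Figure D4:**
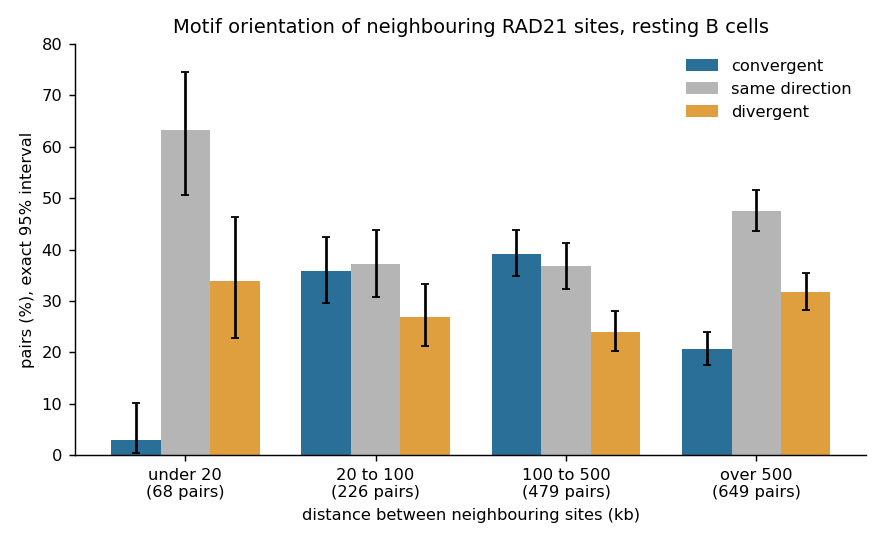
Share of neighbouring motif-bearing RAD21 sites in resting B cells, in percent of pairs with exact 95% binomial intervals, whose motifs were convergent, in the same direction or divergent, by distance between the sites. Convergent pairs made up 2.94% below 20 kb, 39.2% at 100 to 500 kb and 20.6% beyond 500 kb.

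Genes of the B cell lineage often had a site close by. Over all 22367 protein-coding genes, 1525 had a site within 10 kb of the gene body, or 6.82%, and 3772 had one within 50 kb, or 16.9%. A site inside the gene body was present in 680 genes, or 3.04%. Of 89 genes in 5 lists of B cell genes, 28 had a site within 10 kb (31.5%), 52 within 50 kb (58.4%) and 10 inside the gene body. These genes had a median length of 20.9 kb compared with 15.4 kb over all genes. Of the 89, 53 lay in the gene-richest quartile of bins, compared with 14220 of all 22367 genes. Within that quartile 15 of the 53 had a site within 10 kb (28.3%), compared with 7.19% of all genes there. Over all genes the share with a site rose with length, from 4.45% of those under 10 kb to 11.3% of those over 100 kb. With replicate 1, 2 or 3 left out, 14, 24 and 10 of the 89 genes had a site, beside 2.73%, 6.02% and 2.29% of all genes. The lists were chosen by hand with earlier results of these data known, so the counts are a description.

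**Figure D5:**
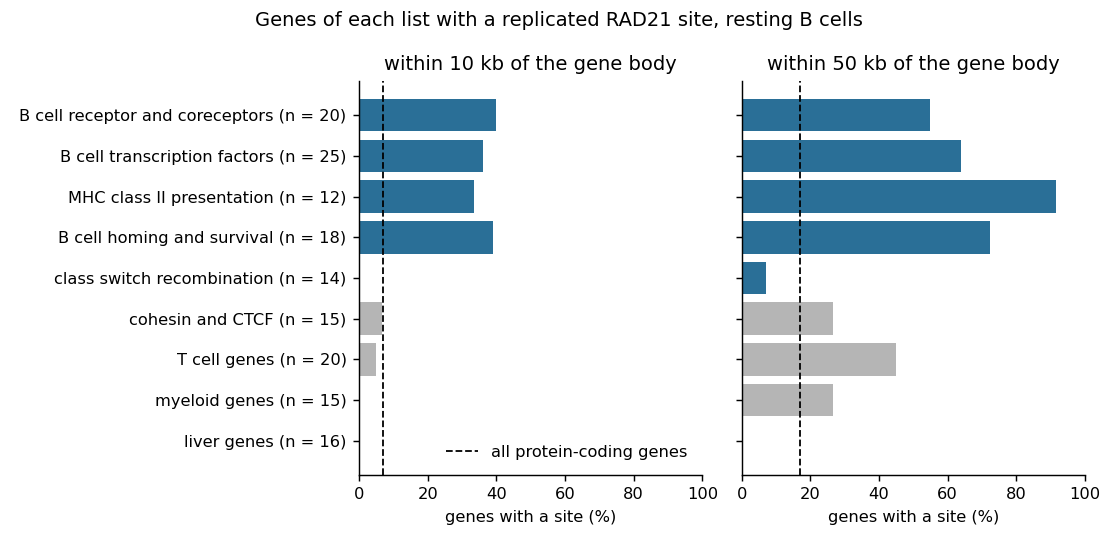
Percent of the genes of each list with a replicated RAD21 site within 10 kb (left) or 50 kb (right) of the gene body in resting B cells, with B cell lists in blue, other lists in grey and the number of genes in brackets. The dashed line is the share over all protein-coding genes, 6.82% and 16.9%, and 4 of the 5 B cell lists lay above it at both distances. At 50 kb the lists of T cell genes (45.0%), myeloid genes (26.7%) and cohesin genes (26.7%) also lay above it.

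Among 20 genes of the B cell receptor and its coreceptors, 8 had a site within 10 kb, among them Cd79a, Cd79b, Cd22, Cd72, Syk (annotated as Sykb), Plcg2 and Prkcb. The Cd79a site, 6.73 kb before the start, scored 20.75 in replicate 1 and 17.14 in replicate 3 and had no peak in replicate 2. The Plcg2 site lay in an intron of that gene, which encodes the phospholipase that relays receptor signals, and scored 14.21 and 16.07 in replicates 1 and 3. Both of these sites were thus seen in 2 of 3 replicates.

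Among 25 genes of the hand-chosen list of B cell transcription factors, 9 had a site: Pax5, Ebf1, Ikzf1, Spi1 (annotated as Sfpi1), Pou2f2, Bach2, Foxo1, Bcl6 and Id2. Pou2f2, which encodes OCT2, an octamer-binding activator, had 2 sites. The site in its intron, at chr7:25890878-25891156, scored 27.97, 18.6 and 13.9 in replicates 1, 2 and 3, and the one 830 bp before its start scored 8.47, 12.76 and 7.08. Ebf1, which encodes a factor that specifies the B lineage, also had 2 sites, and the one 6.24 kb before the start scored 12.14, 13.84 and 27.08. Foxo1, which encodes a factor of B cell development and homing, had a site 5.70 kb before the start with scores of 28.46, 6.68 and 37.36. Its rank differed widely between replicates, low in replicate 2 and high in replicates 1 and 3.

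Pax5 encodes the factor that maintains B cell identity, and it had a single site within 10 kb of the gene body. The site lay in intron 5 at chr4:44685442-44685663, 38.8 kb after the gene start. It scored 9.77, 9.42 and 13.61 in replicates 1, 2 and 3, at percentiles 29.2, 41.8 and 71.0, so it was found in all 3 replicates at a middling rank. No site, and no peak of a single replicate, was found within 10 kb of Prdm1, which encodes the plasma cell regulator BLIMP-1, or of Zfp386, the gene flanking Igh. The paper, however, describes cohesin in mature B cells at the Prdm1 promoter, upstream of it, and in an intron of Zfp386. A missing peak in the replicate lists is thus no sign that cohesin was absent there.

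Among 12 genes of MHC class II presentation, 4 had a site: H2-DMa, H2-DMb1, H2-DMb2 and H2-Ob. H2-DMa and H2-DMb2, which encode chains of the peptide exchange factor of class II molecules, shared 1 site. This site lay in the 5′ untranslated region of H2-DMa, 278 bp after its start, and scored 13.19 and 17.22 in replicates 1 and 3. The H2-DMb1 site scored 11.15, 7.94 and 14.62 in replicates 1, 2 and 3. Within 50 kb 11 of the 12 genes had a site, and the genes of this list lie close together on chromosome 17.

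Among 18 genes of B cell homing and survival, 7 had a site, among them Ccr7, S1pr1, Cxcr4, Fcer2a, Il4ra and Il21r. The 2 sites near Fcer2a, which encodes the low-affinity IgE receptor CD23, lay beyond the gene end, and the higher one scored 20.07 and 18.78 in replicates 1 and 3. The Il21r site scored 8.72, 18.19 and 31.3 in replicates 1, 2 and 3. The Ccr7 site lay 183 bp before the start of this chemokine receptor gene and scored 8.96 and 16.22 in replicates 2 and 3. Close to the start lay the sites of the homing receptor genes Ccr7, Cxcr4 (375 bp before) and S1pr1 (124 bp after). These were singled out after their positions were seen. The Ccr7 and S1pr1 sites lacked the motif and were the only ones of the 30 sites near B cell list genes to do so.

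In the remaining lists the counts within 10 kb were 0 or 1, where the share of all genes, 6.82%, gives about 1 gene in lists of this size. They are therefore not set apart from the background. None of 14 class switch recombination genes had a site within 10 kb, and 1 had one within 50 kb (7.14% against 16.9% of all genes). Of 15 genes of cohesin and its partners, only Ctcf had a site, which scored 9.08 and 14.61 in replicates 1 and 3. Of 20 T cell genes, only Cd2, which encodes an adhesion receptor also present on mouse B cells, had a site, 7.75 kb before its start with scores of 16.22 and 21.47 in replicates 1 and 3. None of 15 myeloid genes and none of 16 liver genes had a site within 10 kb. Within 50 kb the counts were 4 of 15 for cohesin and its partners (26.7%), 9 of 20 for T cell genes (45.0%), 4 of 15 for myeloid genes (26.7%) and 0 of 16 for liver genes, beside 16.9% of all genes.

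The 30 sites near the B cell list genes were of middling rank. Their median mean percentile was 55.3 (range 20.4 to 88.6), compared with 55.7 over all 1762 sites. The motif was in 28 of them (90.3% of all sites), and 11 were found in all 3 replicates (538 of all 1762 sites). By annotation 8 were intronic, 8 intergenic, 6 downstream of a gene, 4 in promoters and 4 in 5′ untranslated regions, counting any gene. Over all 1762 sites these classes held, in the same order, 34.3%, 49.6%, 6.07%, 5.90% and 0.908%. The 30 sites were picked for lying within 10 kb of a gene, so fewer intergenic sites among them follow from the choice.

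At the immunoglobulin loci the sites lay in and beyond the gene segments. The annotated Igh segments span 2729 kb of chromosome 12 (114509484 to 117238672), and Igh is read from the higher to the lower coordinate. No replicated site lay within this span. There were 4 sites beyond its 3′ end, 13.8 kb, 48.3 kb, 49.0 kb and 50.6 kb past the last annotated constant segment, in the direction of Tmem121. That segment is Gm900, a RefSeq synonym of Ighe. The constant gene of IgA was not among the segments used here, so the distances do not place the sites relative to it. In mature B cells the paper describes a site of cohesin and CTCF, named iCα, within the constant region of IgA. Whether any of the 4 sites is iCα was not determined, so they may not all lie outside the constant genes. The wider stretch is known for the 3′ regulatory region of Igh and its CTCF sites. The 3 outer sites formed the tightest run of the genome described above. Their scores in replicates 1 and 3 were 17.25 and 19.85, 20.12 and 17.22, and 10.25 and 26.74, going outward. The innermost site scored 11.27 and 11.34. Replicate 2 had no peak at any of the 4. A further 6 sites of the locus were found in 1 replicate, and 3 of these lay among the variable segments.

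Igk had 6 sites, 3 among the variable segments and 3 beyond the constant segment, 25.9 kb, 42.1 kb and 85.3 kb past it. All but the outermost variable-side site were found in all 3 replicates. The site 25.9 kb past Igkc scored 16.32, 7.53 and 43.18 in replicates 1, 2 and 3 at percentiles 78.9, 20.5 and 99.8, so its rank differed widely between replicates. The next lay in intron 8 of Rpia, which encodes an enzyme of the pentose phosphate pathway, and scored 14.96, 10.19 and 6.95. The last scored 26.22, 9.99 and 16.29. Within the variable segments the site near Igkv10-95 scored 11.34, 17.18 and 17.76, the one near Igkv5-48 scored 14.96, 6.95 and 22.32, and the one near Igkv17-121 scored 9.02 in replicate 1 and 8.15 in replicate 3. All 6 Igk sites held the motif, but they lie on an even-numbered chromosome and so were among the sites on which it was learned.

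Igl, the smallest locus with a span of 196 kb, had 3 sites, 1 of them within the span. The inner site scored 8.97 and 11.36 in replicates 1 and 2. The site 2.68 kb past the outer end scored 17.14 and 6.95 in replicates 1 and 3. None of the 3 was found in all 3 replicates. The authors' list on merged replicates had 9, 14 and 8 peaks in the same windows of Igh, Igk and Igl, compared with 4, 6 and 3 replicated sites.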

How the data were processed

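RAD21 chromatin immunoprecipitation and input libraries were prepared in 3 replicates per time point. Per the methods of the study, the authors aligned reads to mm9 with Bowtie2, reduced every set of alignments at random to the same number of unique positions, and called peaks against input with MACS at a fixed false discovery rate, per replicate and on merged replicates. The deposited peak lists hold positions and a score whose statistic is not named. Read counts per peak are unknown, so no interval on occupancy is given, and binomial intervals cover counting error only.

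Here the peaks of the 3 resting lists were merged when they shared 1 bp, and sites with a peak in at least 2 replicates were kept. The lists of the other time points were used only to count the sites of the series. Features came from GENCODE M1 on NCBIM37 (the same assembly as mm9), by site centre, over 51710 transcripts of 22367 protein-coding genes. Positions are 1-based. RefSeq synonyms matched 3 older symbols. The motif was learned from the 8-base word most enriched over windows 1 kb away, GCCACTAG, as a 20-base matrix on even-numbered chromosomes. The cutoff passed 5% of flanking windows (stricter: 1%), and the search used both strands. A pair was convergent when the left motif read on the plus strand and the right on the minus strand. No test was run, since the sites of a list are not replicates and there is 1 group. Computations used Python 3.11.15, scipy 1.17.1 and pysam 0.24.0 and were tested on simulated data.

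Sites were named by rule: the 20 sites in all 3 replicates with the highest mean percentile, the 5 runs with the most sites, the 5 densest 1-Mb bins (with ties), up to 3 genes per list with the highest-ranked site within 10 kb, all sites within 100 kb of Igh, Igk and Igl, sites within 10 kb of Pax5, Prdm1 and Zfp386, and the densest and sparsest chromosomes. A few items that these rules name are not reported here. The sites and lists were chosen with earlier results of these data known. Alternatives were a stricter score, lists of equal length, all 3 replicates, a 50% overlap, merging within 500 bp, the merged-replicate list, leaving out each replicate, and other windows and cutoffs.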

Additional observations from a re-analysis of the deposited data

How the results depend on the processing

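Of 114 alternative values of 13 results, 56 moved by less than 1 SD over the 3 replicate lists (counts: by less than 1.5 times), 58 by more, and 0 reversed. A reversal was possible only for the correlation across chromosomes, since shares, distances and counts have no sign. That SD is wide for quantities that follow list length, so some of the 56 still changed over 1.5 times. The share of all genes with a site, 6.82%, was 3.04% above the median score, 2.53% with equal lists, 2.09% in all 3 replicates, and 2.73% and 2.29% without replicates 1 and 3. The share with a neighbour within 20 kb, 8.80%, was 3.97% above the median score and 3.55% with equal lists, and the spacing was 125 kb in the merged-replicate list. Keeping the peaks above the median score of each list gave 780 sites, of which 38.5% lay in gene bodies, a median spacing of 1321 kb, 41.7% of the gene-richest bins with a site, 26.1% convergent pairs and 13 B cell list genes with a site. Lists cut to equal length gave 647 sites, 5.56% within 1 kb before a start, 39.1% in gene bodies, 15.1 kb to the nearest start, a spacing of 1622 kb, 38.2% of the richest bins, 24.1% convergent pairs and 11 B cell genes. Requiring all 3 replicates gave 538 sites, 6.32% within 1 kb and 13.6% within 3 kb before a start, 38.8% in gene bodies, 90.1% with the motif, a spacing of 2321 kb, 1.86% with a neighbour within 20 kb, 32.9% of the richest bins, 24.9% convergent pairs and 10 B cell genes. The merged-replicate list gave 6.49% within 1 kb before a start, 41.6% in gene bodies, 85.4% with the motif, 24.4% with a neighbour within 20 kb, 88.0% of the richest bins, 27.1% convergent pairs, 19.5% of all genes and 55 B cell genes with a site. A 50% overlap gave 91.0% with the motif, and the stricter motif cutoff 66.6%. Counting any overlap gave 6.87% and 12.9% within 1 and 3 kb before a start, all annotated genes gave 13.5 kb to the nearest start, a 50 kb limit gave 19.3% of sites with a neighbour, and a 50 kb window gave 16.9% of all genes and 52 B cell genes.

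Leaving out each replicate in turn gave 585 to 1552 sites, 5.93% to 6.50% within 1 kb and 12.3% to 13.5% within 3 kb before a start, 39.0% to 40.9% in gene bodies, 89.9% to 90.6% with the motif, a spacing of 542 to 2035 kb, 1.71% to 8.18% with a neighbour within 20 kb, a chromosome correlation of 0.737 to 0.816, 34.6% to 61.2% of the richest bins, 24.9% to 28.0% convergent pairs, and 10 to 24 B cell genes. Quantities that count sites moved with the number of sites by construction. No paired analysis was possible because only 1 group was described. Read depth per peak is unknown, so a gene without a site may have one below the calling threshold.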

Other observations

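Outside genes, 334 of 1043 sites lay between genes that are transcribed away from each other (32.0%, exact 95% interval 29.2 to 35.0), compared with 26.7% of positions taken every 10 kb. Between genes transcribed towards each other lay 172 sites (16.5%, 14.3 to 18.9, against 21.8% of positions), and 535 lay between genes of the same direction (51.3% against 51.1%). Sites close to a start were also more often before it than after it, at 101 of 137 within 1 kb (73.7%, 65.5 to 80.9).

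The strand of the motif was close to evenly divided relative to the nearest gene. Within 1 kb of a start the motif read in the direction of the gene at 62 of 113 sites (54.9%, exact 95% interval 45.2 to 64.2), at 143 of 284 sites lying 1 to 10 kb before a start (50.4%, 44.4 to 56.3), and at 96 of 184 lying 1 to 10 kb after one (52.2%, 44.7 to 59.6). Each interval included an even division.

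Convergent pairs enclosed fewer genes in the median, with 3 protein-coding starts between the motifs, compared with 7.5 for same-direction and 8 for divergent pairs. They were nevertheless the least often without any start between them, at 5.19% compared with 11.6% and 9.63%. Their shorter median distance, given above, goes with the lower median number of starts but not with this lower share. Below 20 kb only 2 of 68 pairs were convergent. Only 6 genes held 3 or more sites in the gene body, and the 2 highest were long gene models, Gm20388 with 9 sites in 4435 kb and Fgfr2 with 4 sites in 3009 kb.

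The longest stretch between neighbouring sites was taken for each autosome. After the 17.7 Mb of chromosome 14 these were 17.2 Mb on chromosome 7, 17.1 Mb on chromosome 16 and 16.2 Mb on chromosome 17, holding 77, 57 and 58 protein-coding genes. Chromosomes 7, 16 and 17 carry 14.6, 7.09 and 11.9 protein-coding genes per sequenced Mb. These stretches thus held genes, but fewer per Mb than their chromosomes as a whole. On chromosome X, with 5 sites, the longest was 89.1 Mb.

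The sites were richer in G and C than windows 1 kb away, at 49.8% ± 6.92 (SD over 994 sites) compared with 46.4% ± 7.87 (SD over 1988 windows). They held 4.06 CpG dinucleotides per 200 bases compared with 2.71. A tandem repeat of at least 20 bases was present in 3.12% of the sites and in 7.65% of the windows.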
